A study of Mus musculus with 33 samples.

Results

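The transcript levels of 10 subunits of the Polycomb repressive complexes were followed through embryoid body (EB) differentiation of mouse embryonic stem cells (ESCs). The genes were taken by symbol (Ezh1, Ezh2, Eed, Suz12, Jarid2, Mtf2, Phf19, Cbx2, Cbx7 and Rnf2), and all 10 were among the 16336 genes of the expression table. The rule did not use their values, but earlier results of these data were known when the genes were chosen. Poly-A RNA was sequenced from E14Tg2a, a wild-type ESC line of the 129/Ola strain, and from ΔK9.1 and ΔK9.2, which derive from it and lack on both alleles a region between the Nanog enhancer and promoter that carries trimethylated histone H3 lysine 9. Each deleted genotype is 1 clone, so a difference shared by its libraries can belong to the clone as well as to the deletion. Undifferentiated cells (day 0) grew on gelatine in serum with leukaemia inhibitory factor (LIF), and differentiating cells in serum without LIF were collected on days 4, 6 and 8. By the study's methods the EBs floated until day 4 and were then plated again on gelatine, so the cells of days 6 and 8 were attached outgrowths, and time and this change of culture cannot be told apart between days 4 and 6. Each of the 12 groups of line and day had 3 libraries, from assays run in parallel in the 3 lines, except that day 6 had replicates 2 and 3 only, which makes 33 libraries.

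Polycomb group proteins keep developmental genes silent through 2 families of chromatin complexes. Polycomb repressive complex 2 (PRC2) methylates lysine 27 of histone H3 with EZH2 or EZH1 as its catalytic subunit and EED and SUZ12 as its obligate core. JARID2 helps to place it on chromatin, and in other forms a Polycomb-like protein such as MTF2 or PHF19 guides it to unmethylated CpG-rich DNA. Polycomb repressive complex 1 (PRC1) ubiquitylates histone H2A through RNF2 (RING1B), and in its canonical form a CBX protein such as CBX7 or CBX2 reads the methyl mark laid by PRC2. The CBX subunit is known to be exchanged when ESCs differentiate, with CBX7 the main form in pluripotent cells.

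The promoters of the members are CpG-rich, and 3 are shown because their genes took different courses: Jarid2 fell in every line, Suz12 fell more modestly, and Rnf2 was at its starting level again by day 8. Each is the 250 bases before the start site given by RefSeq (GRCm38.p6), 5′ to 3′ on the strand of the gene, with every CpG in capitals, and no exon of GENCODE M21 lies in these 3 windows. For Jarid2, which has 2 start sites in that source, the one farther upstream is given. GENCODE M21 starts Jarid2 farther upstream still, at chr13:44729474, so by that annotation its window lies within the gene. Jarid2 is at chr13:44730524-44730773 on the plus strand, Suz12 at chr11:79992856-79993105 on the plus strand and Rnf2 at chr1:151500992-151501241 on the minus strand.
Jarid2: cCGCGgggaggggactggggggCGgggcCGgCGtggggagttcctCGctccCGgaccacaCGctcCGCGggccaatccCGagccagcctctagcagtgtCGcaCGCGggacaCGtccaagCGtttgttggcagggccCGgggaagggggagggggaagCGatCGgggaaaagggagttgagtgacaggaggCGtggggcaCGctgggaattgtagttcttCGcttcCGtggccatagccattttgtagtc
Suz12: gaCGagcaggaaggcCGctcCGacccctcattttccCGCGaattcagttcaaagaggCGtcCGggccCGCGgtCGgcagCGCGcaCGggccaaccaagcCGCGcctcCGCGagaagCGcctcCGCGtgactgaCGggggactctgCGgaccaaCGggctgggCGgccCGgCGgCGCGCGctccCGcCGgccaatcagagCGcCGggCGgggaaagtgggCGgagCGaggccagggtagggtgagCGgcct
Rnf2: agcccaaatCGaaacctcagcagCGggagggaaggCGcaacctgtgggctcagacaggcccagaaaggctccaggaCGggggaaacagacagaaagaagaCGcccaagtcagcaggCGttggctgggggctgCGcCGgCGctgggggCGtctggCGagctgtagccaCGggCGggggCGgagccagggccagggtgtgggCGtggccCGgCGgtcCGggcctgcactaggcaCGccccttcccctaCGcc
They hold 23, 37 and 20 CpGs. The 9 members found in the promoter source (Cbx2 was not among them) held 12 to 37, all above the median of 6 over its 32851 promoters. The windows of Ezh2 and Cbx7, like that of Jarid2, lie wholly within their genes as GENCODE M21 gives them. The word TTTCCCGC, a form of the E2F site, was searched on both strands and occurred in the windows of Suz12 and Phf19, against 0.895% of all promoters, and TTTGGCGC occurred in none of the 9, against 0.417%. Both words hold a CpG, and the windows of Suz12 and Phf19 had the most CpGs of the 9 (37 and 31). The shares over all promoters were not matched for CpG content, so they do not show an excess of the word in the members. Such a match describes the letters and does not show that a factor binds there.

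Levels are given in TPM (transcripts scaled to a fixed total per library), which count transcripts per length of gene, and differences are given as log2(TPM + 1) with their standard error (SE) from 1 limma fit over all 33 libraries. A member was called when its p, adjusted by Benjamini-Hochberg over all 16336 genes, was under 0.05. The listed TPM summed to between 994284 and 998266 per library. Nanog, the gene beside the deletion and not itself deleted, lay between 326 and 368 TPM in E14Tg2a on day 0 and between 412 and 486 in the 6 libraries of the clones. A list of 8 embryonic stem cell markers summed to 7553 TPM or more in every library on day 0. Some libraries stood apart within their group. On the first principal component (51.5% of the variance) the third libraries of ΔK9.1 on days 6 and 8 lay at -3.07 and 42.8, against 30.9 for the other on day 6 and 71.9 and 81.5 for the others on day 8. The second library of day 8 held the most RNA of a list of 6 blood and endothelium markers in every line, 4574 TPM against 1060 and 1030 in E14Tg2a, 1865 against 85.3 and 49.2 in ΔK9.1 and 244 against 34.6 and 76.7 in ΔK9.2. The first E14Tg2a library of day 0 held 105 TPM of a list of 9 extra-embryonic endoderm markers, against 7.04 and 10.4 in the others, and 7.98 TPM of 5 mesenchyme markers, against 0.772 and 0.926. The first ΔK9.2 library of day 0 held 48.7 TPM of the endoderm list, against 4.63 in each of the others, and the first of ΔK9.1 8.18, against 3.61 and 4.04.

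**Figure D1:**
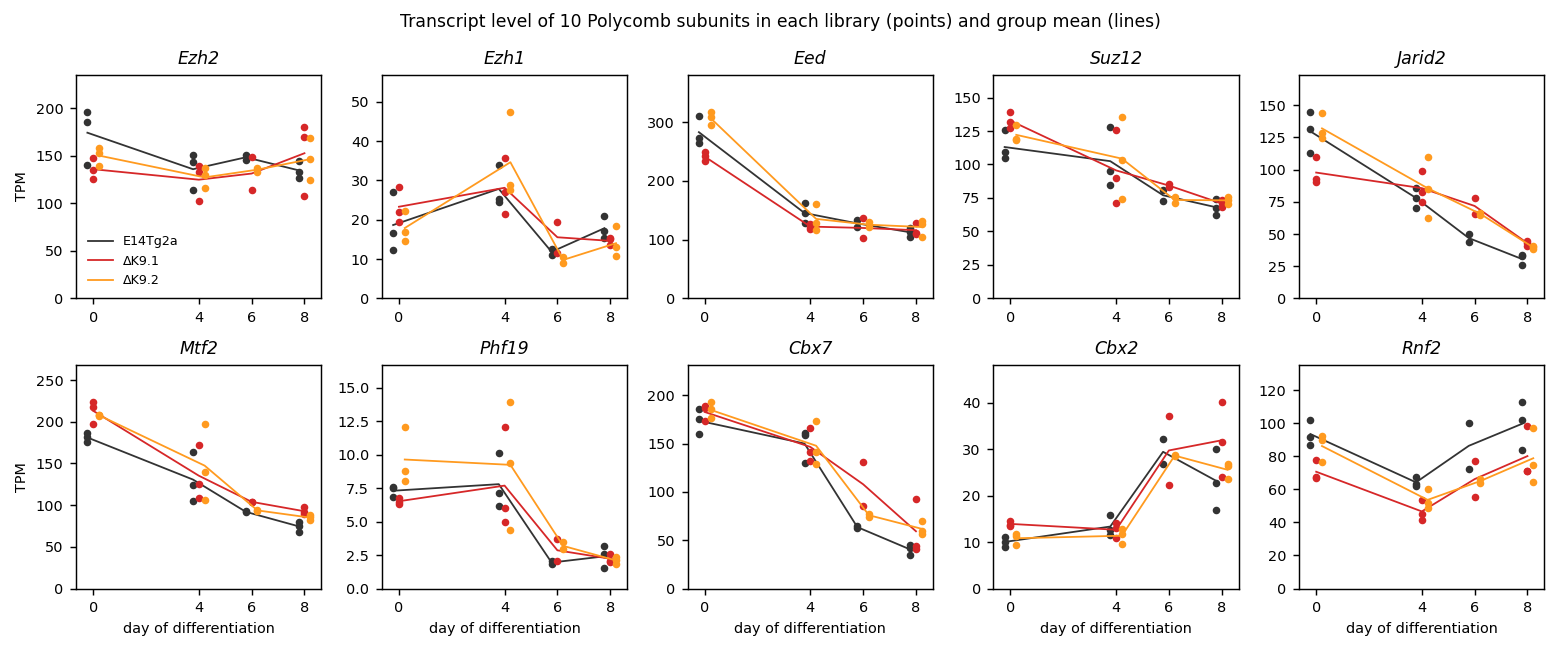
TPM of the 10 members (vertical axis, from 0) against the day of differentiation (horizontal axis) in E14Tg2a (black), ΔK9.1 (red) and ΔK9.2 (orange). Each point is 1 library and lines join the group means. Eed, Suz12, Jarid2, Mtf2, Phf19 and Cbx7 end lower in all 3 lines, Cbx2 ends higher, and Ezh2 and Rnf2 do not pass the test on day 8 in any line.

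By day 8 most members were lower in E14Tg2a. Of the 10, 6 fell (Eed, Suz12, Jarid2, Mtf2, Phf19 and Cbx7), 1 rose (Cbx2), and Ezh1, Ezh2 and Rnf2 did not pass the test. Over all genes, 26.2% were called lower and 32.1% higher in this comparison, and 58.3% in either direction. The median log2 difference was -0.997 over the members and 0.05 over all genes. Bulk RNA cannot tell fewer cells of a type from less RNA per cell, and this holds for every change given here. Together the 10 genes gave 1184 TPM on average in E14Tg2a on day 0 and 604 on day 8.

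Neither catalytic subunit passed on day 8 in E14Tg2a. Ezh2 (chr6:47530139-47595341, mm10), the main methyltransferase of dividing cells, lay at 141, 196 and 186 TPM in the 3 E14Tg2a libraries of day 0 and at 145, 133 and 126 on day 8. The groups overlapped, and the difference was -0.36 ± 0.16 (adjusted p = 0.0627). It passed without the first library of day 0, the one with the endoderm markers (-0.50, adjusted p = 0.0165), on rescaling each library by its median ratio (-0.43, adjusted p = 0.0125), with library weights (-0.47, adjusted p = 0.0077) and in the fit blocked by replicate (adjusted p = 0.0294). In ΔK9.1 and ΔK9.2 the same difference was 0.14 ± 0.16 and -0.04 ± 0.16, and neither passed. A list of 20 proliferation genes had 12 members lower and 2 higher on day 8 in E14Tg2a (26.2% and 32.1% of all genes) and summed to between 2622 and 2994 TPM, against 3562 to 3946 on day 0.

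Ezh1 (chr11:101191115-101226463), the paralog that is usually prominent in resting and adult cells, showed no lasting switch with Ezh2. It lay at 27.0, 16.6 and 12.3 TPM in E14Tg2a on day 0, at 33.8, 24.6 and 25.1 on day 4, at 11.1 and 12.6 on day 6 and at 15.4, 21.0 and 17.0 on day 8. Day 4 was thus the highest day and day 6 the lowest, but none of the 3 differences from day 0 passed in this line. The day 4 difference (0.61 ± 0.25) passed without the first library of day 0 (0.897, adjusted p = 0.0136), on rescaling (adjusted p = 0.0341) and with library weights (adjusted p = 0.0256), and the day 6 difference passed without the third library of day 0 (adjusted p = 0.0371). In ΔK9.2 Ezh1 rose to day 4 (22.2, 16.9 and 14.5 TPM to 47.4, 28.9 and 27.5, log2 difference 0.89 ± 0.25, adjusted p = 0.0089). It was lower than on day 0 on day 6 there (8.96 and 10.6 TPM, adjusted p = 0.0282). The first of these calls was lost without the first ΔK9.2 library of day 4 (adjusted p = 0.0675), and the second without the first library of day 0 (adjusted p = 0.119) or either of day 6 (adjusted p = 0.173 and 0.07). The first replicate was the highest of its group in all 3 lines on days 0 and 4 for Ezh1. Ezh2 made up 90.0% ± 5.3 (SD, n = 3) of the summed TPM of both paralogs in E14Tg2a on day 0 and 88.3% ± 2.0 on day 8, with Ezh1 the rest.

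The other core subunits fell in every line. Eed (chr7:89954654-89980983), which binds the methyl mark and activates the enzyme, went from 265, 273 and 311 TPM in E14Tg2a on day 0 to 145, 162 and 129 on day 4 and 112, 105 and 120 on day 8. Across all 33 libraries the lowest value on day 0 was 234 TPM and the highest on any later day was 162, so the undifferentiated cells stood clear of the rest. The day 8 difference was -1.32 ± 0.11 in E14Tg2a (adjusted p = 5.6e-10), -1.05 ± 0.11 for ΔK9.1 and -1.34 ± 0.11 for ΔK9.2. Most of it was in place on day 4 (-0.96 ± 0.11 in E14Tg2a). An exon of an antisense gene, E230029C05Rik, lies just before the Eed start. The libraries were stranded and were quantified with a strand-specific setting.

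Suz12 (chr11:79993106-80034123), the scaffold of PRC2, fell by a smaller amount. It lay at 125, 109 and 104 TPM in E14Tg2a on day 0, at 128, 95.4 and 84.5 on day 4, at 73.0 and 81.0 on day 6 and at 74.5, 67.4 and 62.4 on day 8. The first replicate of day 4 was above all 3 libraries of day 0, and it was the highest of its group in all 3 lines. The difference did not pass on day 4 in E14Tg2a (-0.16 ± 0.17, adjusted p = 0.541) and passed on day 8 (-0.72 ± 0.17, adjusted p = 0.00073). On day 4 it passed in ΔK9.1 (-0.51 ± 0.17, adjusted p = 0.0266), a call lost on rescaling (adjusted p = 0.319), in a fit of the compared groups alone (adjusted p = 0.110) and without the first (adjusted p = 0.0623) or second (adjusted p = 0.0864) library of day 0 or the second (adjusted p = 0.0698) or the third (adjusted p = 0.209) of day 4. In ΔK9.2 it did not pass (-0.27 ± 0.17, adjusted p = 0.246), except with library weights (adjusted p = 0.0322) or without the first library of day 4 (adjusted p = 0.035). The clones gave -0.90 and -0.73 on day 8, each with SE 0.17.

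Among the accessory subunits, Jarid2 (chr13:44729474-44921643) fell most in E14Tg2a. JARID2 binds chromatin with PRC2 and stimulates it, and it is abundant in pluripotent cells. Jarid2 lay at 145, 113 and 132 TPM in E14Tg2a on day 0, at 78.2, 85.8 and 70.1 on day 4, at 43.5 and 50.1 on day 6 and at 33.7, 32.6 and 25.8 on day 8. Every library of a day was below every library of the day before it. On the TPM + 1 scale the level on day 8 was 4.13-fold lower (-2.05 ± 0.15, adjusted p = 3.3e-11). The fall to day 8 was -1.17 ± 0.15 for ΔK9.1 and -1.71 ± 0.15 for ΔK9.2.

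The Polycomb-like proteins differ in abundance. Mtf2 (chr5:108065674-108109004), the main form in ESCs, went from 181, 186 and 176 TPM in E14Tg2a on day 0 to 75.4, 80.1 and 68.4 on day 8 (-1.27 ± 0.16, adjusted p = 2.6e-07). Its fall was of the same order in the clones, -1.19 and -1.28. Phf19 (chr2:34893757-34914026) was far lower, at 6.87, 7.49 and 7.56 TPM on day 0, at 10.1, 6.19 and 7.10 on day 4, at 2.04 and 1.84 on day 6 and at 3.15, 2.56 and 1.51 on day 8. Its day 4 difference passed in no line, with clone libraries spread from 4.97 to 12.1 TPM in ΔK9.1 and from 4.39 to 13.9 in ΔK9.2. Every library of days 6 and 8 in the 3 lines was lower than all of days 0 and 4, at 3.68 TPM or less. The day 8 difference was -1.32 ± 0.29 (adjusted p = 0.00033) on a scale where the added 1 TPM shrinks a change of so low a gene. Phf1, the remaining Polycomb-like gene, rose from 6.19 ± 1.18 to 10.8 ± 2.2 TPM (SD, n = 3; 0.72 ± 0.23, adjusted p = 0.0094). As a share of the 3 paralogs, Mtf2 went from 93.1% ± 0.4 to 85.0% ± 1.4 and Phf1 from 3.17% ± 0.51 to 12.3% ± 1.9.

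The CBX readers moved in opposite directions. Cbx7 (chr15:79915807-79971119) lay at 186, 175 and 160 TPM in E14Tg2a on day 0, at 159, 161 and 130 on day 4, at 64.4 and 62.8 on day 6 and at 44.9, 41.5 and 35.1 on day 8. Cbx2 (chr11:119022962-119031270) lay at 11.0, 10.1 and 8.98 TPM on day 0, at 11.5, 15.8 and 12.7 on day 4, at 32.1 and 26.8 on day 6 and at 30.1, 22.7 and 17.0 on day 8. In E14Tg2a the libraries of both genes on day 6 lay clear of those on day 4, and those of Cbx7 were lower again on day 8. Cbx7 was 4.22-fold lower on day 8 on the TPM + 1 scale (-2.08 ± 0.20, adjusted p = 2.1e-09) and Cbx2 was 2.15-fold higher (1.104 ± 0.19, adjusted p = 2.1e-05). In all 3 lines the Cbx2 libraries of days 6 and 8 (17.0 to 40.2 TPM) lay above those of days 0 and 4 (8.98 to 15.8 TPM). The rise to day 8 in ΔK9.1 and ΔK9.2 was 1.11 and 1.17, each with SE 0.19.

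Cbx7 nevertheless remained the most abundant of the 4 paralogs compared in E14Tg2a on day 8. It made up 83.4% ± 0.4 (SD, n = 3) of their summed level on day 0 and 47.8% ± 2.5 on day 8, while Cbx2 went from 4.81% ± 0.12 to 27.0% ± 3.7. Cbx6 went from 11.6% ± 0.3 to 18.9% ± 0.3, although its level fell, from 24.3 ± 2.2 to 16.1 ± 2.5 TPM. Cbx8, also a PRC1 reader, was at 0.442 ± 0.349 TPM on day 0 and rose to 5.25 ± 2.75, which made 6.20% ± 2.95 of the sum. The summed level of the 4 went from 208 ± 16 to 85.1 ± 14.2 TPM. The log2 ratio of Cbx2 to Cbx7 was -4.12 ± 0.04 (SD, n = 3) in E14Tg2a on day 0, -3.50 ± 0.25 on day 4, -1.12 ± 0.16 (n = 2) on day 6 and -0.83 ± 0.24 on day 8. No library of any line reached equal levels, the nearest being a ΔK9.1 library of day 8 at -0.04.

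**Figure D2:**
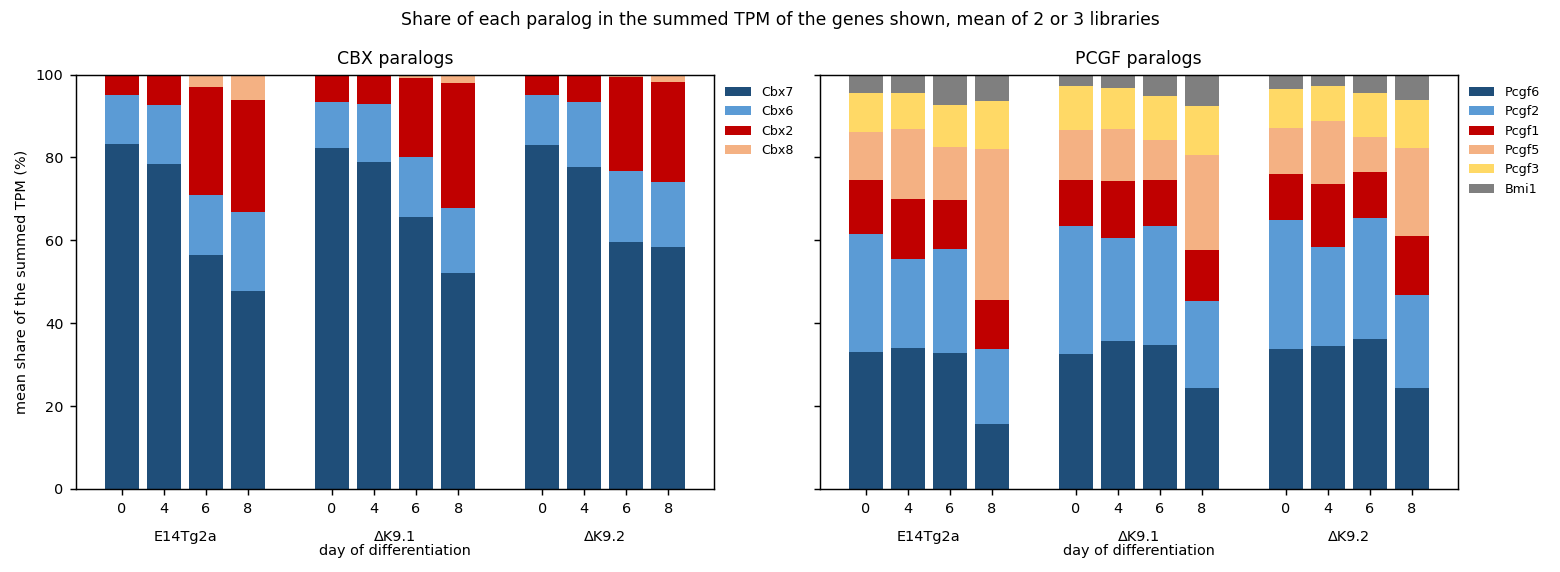
Mean share of each paralog (vertical axis, percent of the summed TPM of the genes shown) in each line by day, for 4 CBX genes (left) and the 6 PCGF genes (right), over 3 libraries, or 2 on day 6. Cbx7 goes from 83.4% to 47.8% in E14Tg2a and to 52.0% and 58.3% in ΔK9.1 and ΔK9.2, while Pcgf5 reaches 36.4% in E14Tg2a on day 8 and 22.8% and 21.2% in the clones. The Cbx7 share of single libraries on day 8 is 46.2% to 50.7% in E14Tg2a, 40.5% to 67.9% in ΔK9.1 and 55.6% to 60.5% in ΔK9.2.

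Rnf2 (chr1:151458004-151500955), the main ubiquitin ligase of PRC1, dipped on day 4 and returned. It lay at 86.8, 91.8 and 102 TPM in E14Tg2a on day 0, at 61.9, 67.8 and 63.1 on day 4, at 100.1 and 72.6 on day 6 and at 83.6, 113 and 102 on day 8. The day 4 libraries were below all others of the line. The fall to day 4 passed in every line (-0.53 ± 0.16 in E14Tg2a, -0.59 ± 0.16 for ΔK9.1 and -0.68 ± 0.16 for ΔK9.2), and no difference from day 0 passed on day 6 or day 8. In ΔK9.2 the day 6 difference (-0.40) passed with the replicate block (adjusted p = 0.0487), with library weights (adjusted p = 0.0116) and in a fit of the compared groups alone (adjusted p = 0.0285). The day 4 call in E14Tg2a was lost without the third library of day 0 (adjusted p = 0.0624). On day 4 the median of all genes lay at -0.21 for ΔK9.1 and -0.16 for ΔK9.2, and on rescaling each library by its median ratio Rnf2, Suz12 and Mtf2 lost the call in ΔK9.1. Rnf2 supplied 90.2% ± 3.5 of the summed level of Rnf2 and its paralog Ring1 in E14Tg2a on day 0 and 85.8% ± 2.9 on day 8.

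**Figure D3:**
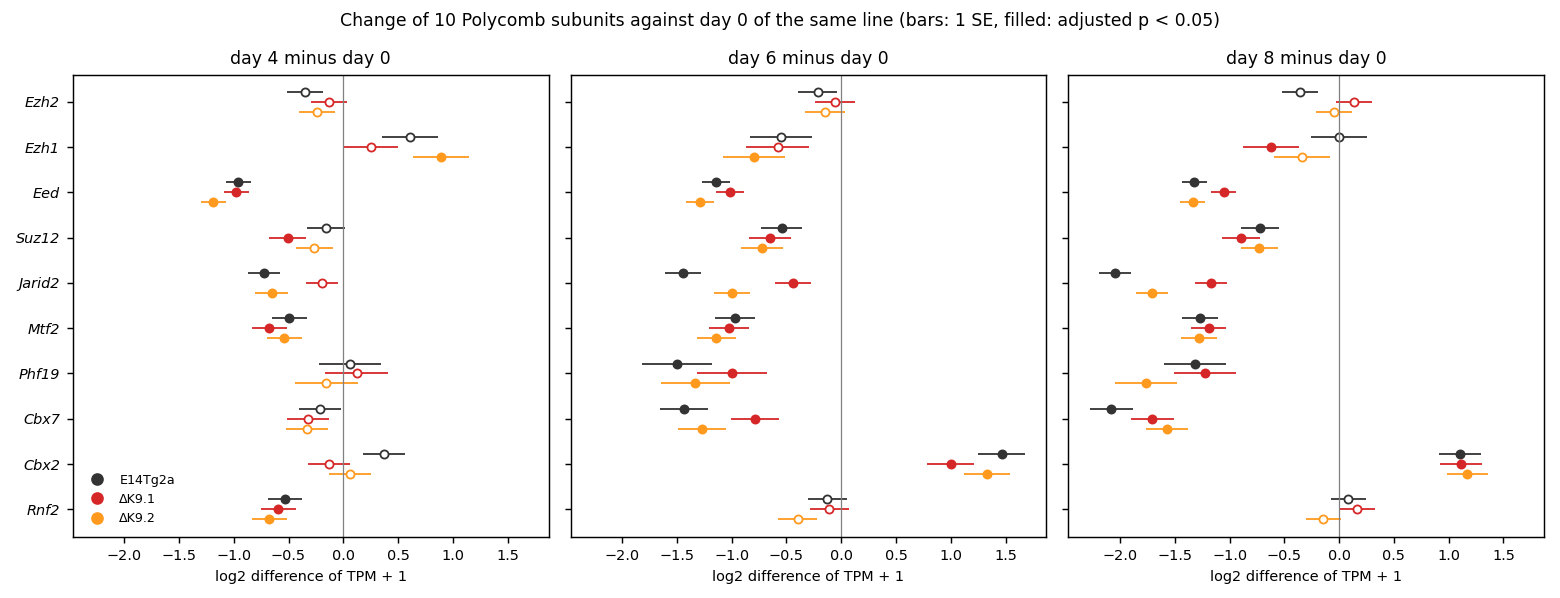
Log2 difference of TPM + 1 from day 0 of the same line (horizontal axis) for each member on days 4, 6 and 8, in E14Tg2a (black), ΔK9.1 (red) and ΔK9.2 (orange). Bars are 1 SE and filled points have an adjusted p under 0.05. On day 4 only Eed, Mtf2 and Rnf2 pass in all 3 lines, and on day 8 Eed, Suz12, Jarid2, Mtf2, Phf19, Cbx7 and Cbx2 do.

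The counts of members that passed were near each other in the 3 lines. On day 4, 4 members were lower and 0 higher in E14Tg2a (15.9% of all genes lower, 10.4% higher and 26.2% in either direction), 4 lower and 0 higher in ΔK9.1 (24.9%, 4.28% and 29.2%), and 4 lower and 1 higher in ΔK9.2 (24.2%, 8.09% and 32.3%). Eed, Mtf2 and Rnf2 were among them in each line. The Mtf2 call in E14Tg2a was lost without the first (adjusted p = 0.0552) or second (adjusted p = 0.0734) library of day 0 or the second (adjusted p = 0.0678) or the third (adjusted p = 0.167) of day 4, or in a fit of the compared groups alone (adjusted p = 0.0913). That in ΔK9.2 was lost without the third of day 4 (adjusted p = 0.138), on rescaling (adjusted p = 0.0843) and in a fit of the compared groups alone (adjusted p = 0.119). By day 6, the lower members numbered 6 in E14Tg2a (20% of all genes lower, 19.6% higher and 39.6% in either direction), 6 in ΔK9.1 (20.3%, 11.2% and 31.4%) and 7 for the ΔK9.2 line (23.9%, 16% and 39.9%), and Cbx2 was the 1 member higher in each line. In ΔK9.1 this count rested on the second library of day 6: without it 2 members passed, and 16.4% of all genes. By day 8, 6 were lower in E14Tg2a, 7 in ΔK9.1 (24.8% of all genes lower, 25.1% higher and 49.9% in either direction) and 6 in ΔK9.2 (26.7%, 24.6% and 51.3%), and again Cbx2 was the 1 higher. The seventh in ΔK9.1 was Ezh1 (-0.62 ± 0.25, adjusted p = 0.0442), whose call was lost when either of 2 libraries of day 0 or any of day 8 was left out. The day 4 libraries spread by assay: the first replicate was the highest of its group in all 3 lines for Ezh1, Suz12, Mtf2 and Phf19, a pattern held by 16.2% of all genes. The same libraries held the most extra-embryonic endoderm marker RNA of their groups, 787 TPM against 99.6 and 344 in E14Tg2a, 40.3 against 5.61 and 5.44 in ΔK9.1 and 194 against 21.3 and 22.3 in ΔK9.2, and its part in these levels was not tested.

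As a description over the 33 libraries, Mtf2 and Suz12 had the highest correlation of any 2 members (Pearson r = 0.959 on log2(TPM + 1)), followed by Jarid2 and Cbx7 (0.933), and Cbx2 and Phf19 had the lowest (-0.851). The libraries share days and lines, so these values mostly restate the time course. Searched over 10337 genes, the closest to Cbx7 were Fgf4 (r = 0.978), a growth factor of pluripotent cells, Dmd (0.976) and Sptbn4 (0.976). The closest to Cbx2 were Efna2 (0.964), Csnk1g2 (0.962) and E2f6 (0.96), the last itself a subunit of a variant PRC1. Those to Ezh2 were Sart1 (0.835), Cenpf (0.814) and Kif11 (0.81), of which Cenpf and Kif11 act in mitosis, and those to Ezh1 were Zfp652 (0.927), Clmn (0.918) and Bnip3 (0.892).

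The clones were then compared with E14Tg2a on each day. No member was called on day 0, 4 or 6, where 3.99%, 2.85% and 3.83% of all genes were. In a fit blocked by replicate number 6.61%, 5% and 6.23% of all genes were called, and of the members only Jarid2 on day 6. At an unadjusted p under 0.05 in the same limma fit the counts of members were 0, 1 and 3 of 10, against 17.6%, 15.5% and 17% of all genes. On day 8 Jarid2 and Cbx7 were higher in the mean of the clones, 2 of 10 members, against 7.52% of all genes called higher and 12.2% lower (19.7% in either direction).

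Jarid2 lay at 40.5, 43.2 and 44.8 TPM for ΔK9.1 and at 40.6, 38.6 and 39.6 for ΔK9.2 on day 8. All 6 libraries were above the 3 of E14Tg2a (25.8 to 33.7 TPM), and the difference was 0.42 ± 0.13 (adjusted p = 0.0218), or 0.48 (adjusted p = 0.0372) and 0.37 (adjusted p = 0.0919) for each clone. On day 6 the 4 clone libraries (64.9 to 78.0 TPM) were above the 2 of E14Tg2a as well, with 0.54 ± 0.16 (adjusted p = 0.0513). Of all genes, 5.44% lay wholly above in the clones on day 8 and 12.8% on day 6. The day 6 difference passed with the block (adjusted p = 0.0173), on rescaling (adjusted p = 0.0182), with a minimum of 5 TPM (adjusted p = 0.0455) and with library weights (adjusted p = 0.0056), and missed the threshold at a pseudocount of 0.1 and in a fit of the day 6 libraries alone. The day 0 difference was -0.19 ± 0.13 (adjusted p = 0.497), with ΔK9.1 (90.8 to 110 TPM) below every E14Tg2a library and ΔK9.2 (124 to 144 TPM) among them. The change from day 0 to day 8 was therefore smaller in the clones, by 0.61 ± 0.18 (test of the difference, adjusted p = 0.0447; 6.3% of all genes passed). That call was lost in 12 of the 18 fits that left out 1 library of day 0 or day 8, with an adjusted p of up to 0.126. The day 8 call was lost without the second (adjusted p = 0.0566) or the third (adjusted p = 0.163) E14Tg2a library of that day, and in a fit of the day 8 libraries alone (adjusted p = 0.063).

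Cbx7 lay at 44.5, 41.2 and 92.2 TPM for ΔK9.1 and at 70.1, 59.2 and 56.1 for ΔK9.2 on day 8. The ΔK9.2 libraries were above those of E14Tg2a (35.1 to 44.9 TPM), while 2 of ΔK9.1 were among them and the third was the one that stood apart. The difference was 0.52 ± 0.17 (adjusted p = 0.03), or 0.60 in ΔK9.2 (adjusted p = 0.0355) and 0.45 in ΔK9.1 (adjusted p = 0.141). The call was lost without the second (adjusted p = 0.0979) or the third (adjusted p = 0.151) E14Tg2a library, without the first of ΔK9.2 (adjusted p = 0.0689) and in a fit of the day 8 libraries alone (adjusted p = 0.246). The change from day 0 to day 8 differed by 0.44 ± 0.24 (adjusted p = 0.281). Cbx2 showed 0.31 ± 0.16 on day 8 (adjusted p = 0.204).

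Other members differed without passing. Mtf2 was higher in every clone library than in every E14Tg2a library on days 0, 6 and 8, with log2 differences of 0.21 ± 0.14, 0.10 ± 0.17 and 0.25 ± 0.14 (adjusted p = 0.465, 0.853 and 0.227). Over all genes, 5.17%, 12.8% and 5.44% lay wholly above in the same way. Rnf2 had a lower mean in the clones on every day, by -0.26, -0.36, -0.38 and -0.33 (adjusted p = 0.344, 0.181, 0.231 and 0.0933), and was wholly below on day 4, as were 5.95% of all genes. Without the first E14Tg2a library of day 8 both Rnf2 (-0.45, adjusted p = 0.0385) and Cbx2 (0.51, adjusted p = 0.0417) passed on that day. Rnf2 also passed without the second ΔK9.1 library (adjusted p = 0.0309) or the third of ΔK9.2 (adjusted p = 0.0312). The core subunits Eed and Suz12 showed differences between -0.18 and 0.17 over the 4 days in the mean of the clones. Taken singly, on day 0 Eed in ΔK9.1 (234 to 248 TPM) lay below every E14Tg2a library without passing (-0.23 ± 0.11, adjusted p = 0.227), and ΔK9.2 lay among or above them (0.12 ± 0.11, adjusted p = 0.988).

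**Figure D4:**
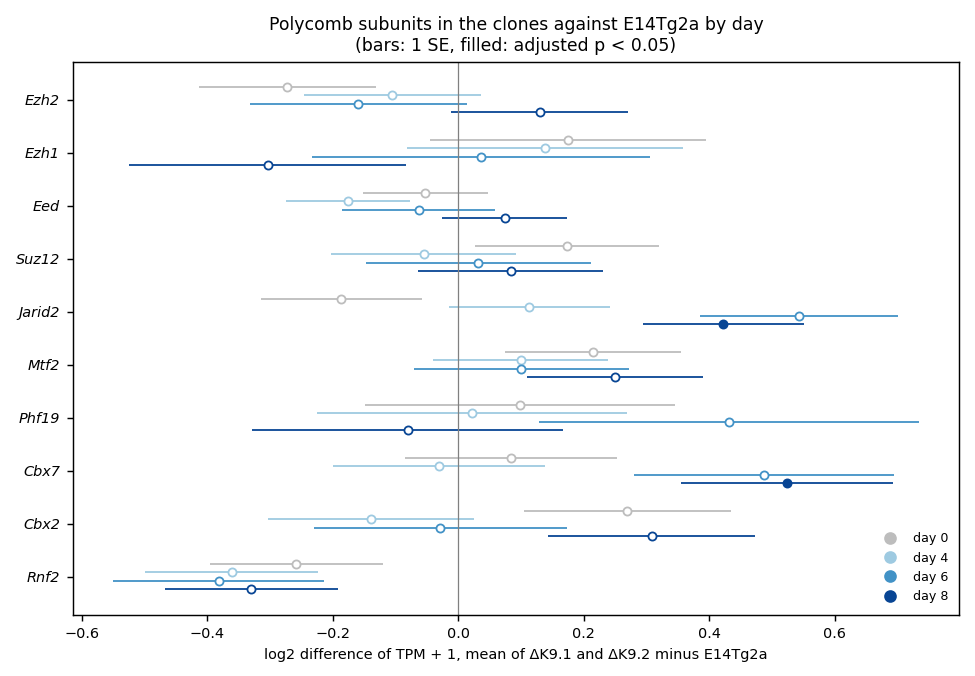
Log2 difference of TPM + 1 between the mean of ΔK9.1 and ΔK9.2 and E14Tg2a (horizontal axis) for each member on days 0, 4, 6 and 8 (light to dark). Bars are 1 SE and filled points have an adjusted p under 0.05. Only Jarid2 (0.42) and Cbx7 (0.52) on day 8 are filled, and Rnf2 lies below 0 on all 4 days.

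Markers of cell identity differed between the lines on day 8, when 7.52% of all genes were called higher and 12.2% lower in the clones. Of the 8 embryonic stem cell markers 6 were higher and 1 lower in the clones, with sums of 719 to 1627 TPM for ΔK9.1 and 887 to 1234 for ΔK9.2 against 390 to 492 in E14Tg2a. The highest sum was that of the ΔK9.1 library with the highest Cbx7. Of 9 extra-embryonic endoderm markers 6 were lower (sums of 34.7 to 147 and 55.9 to 75.4 TPM against 360 to 499), as were 5 of 6 blood and endothelium markers (49.2 to 1865 and 34.6 to 244 against 1030 to 4574), 5 of 5 mesenchyme markers (68.3 to 228 and 35.1 to 155 against 484 to 1728) and 4 of 5 cardiac markers (11.2 to 25.2 and 19.3 to 21.3 against 36.1 to 86.4). Of 5 neural markers 1 was lower (42.2 to 52.0 and 31.5 to 53.4 against 25.0 to 53.3), and of the 20 proliferation genes 5 were higher (2695 to 3384 and 2941 to 3455 against 2622 to 2994). No marker of these lists was at 0 in all libraries of a group on day 8. Their part in the differences of Jarid2 and Cbx7 was not tested.

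Of the wider Polycomb machinery, 14 of 40 genes (35%) were higher and 12 (30%) lower by day 8 in E14Tg2a, near the 32.1% and 26.2% of all genes. Of 7 other PRC2 genes 3 were higher and 3 lower, of 27 other PRC1 genes 10 were higher and 8 lower, and of 6 genes for enzymes that remove the Polycomb marks and their ASXL cofactors 1 was higher and 1 lower. Phc1, a polyhomeotic subunit of canonical PRC1, fell from 158 ± 15 to 31.0 ± 5.8 TPM (SD, n = 3; -2.33 ± 0.22) while Phc2 rose from 18.3 ± 3.2 to 73.9 ± 6.7 TPM (1.97 ± 0.24). Yaf2, a variant PRC1 subunit, rose from 7.99 ± 1.74 to 55.3 ± 7.7 TPM (2.66 ± 0.18). Pcgf5 rose from 17.0 ± 7.3 to 65.3 ± 7.2 TPM (1.95 ± 0.29) and Pcgf6 fell from 46.9 ± 1.1 to 27.8 ± 3.7 TPM (-0.74 ± 0.10). These are 2 of the PCGF subunits that define which PRC1 form assembles. L3mbtl2 (log2 difference -1.42), a partner of PCGF6, fell as well.

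On the PRC2 side, Epop, which links PRC2 to elongin in pluripotent cells, fell from 131 ± 27 to 34.3 ± 11.7 TPM (-1.93 ± 0.19). Rbbp7, a histone-binding subunit that PRC2 shares with other complexes, rose from 260 ± 19 to 706 ± 108 TPM (1.43 ± 0.12). Of the other genes named by the rule, Bcor (log2 difference 1.39), a partner of PCGF1, and Kdm6b (1.32), a demethylase of the PRC2 mark, rose, while Fbrsl1 (-1.33), a homolog of the PRC1 subunit AUTS2, and Usp7 (-1.22), a deubiquitinase found with variant PRC1, fell. All of these passed with an adjusted p under 0.05. Of a list of 17 textbook Polycomb target genes, 15 were higher and 0 lower in E14Tg2a (32.1% and 26.2% of all genes), with a median log2 difference of 2.39. In ΔK9.1 14 were higher and 1 lower (25.1% and 24.8% of all genes), and in ΔK9.2 13 and 2 (24.6% and 26.7%). The summed level of the 17 on day 8 was 1110 to 1400 TPM in E14Tg2a, 275 to 897 in ΔK9.1 and 447 to 813 in ΔK9.2. The lowest sum was that of the third ΔK9.1 library, which stood apart, and the cause of the difference between lines was not tested.

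**Figure D5:**
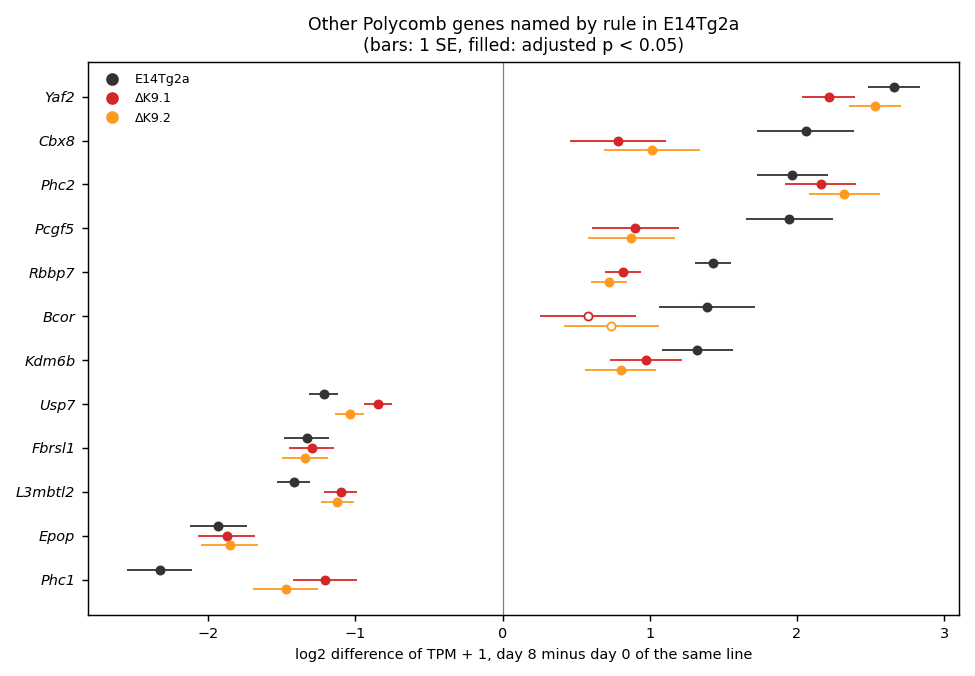
Log2 difference of TPM + 1 between day 8 and day 0 (horizontal axis) for 12 other Polycomb genes named by the size of their change in E14Tg2a, in E14Tg2a (black), ΔK9.1 (red) and ΔK9.2 (orange). Bars are 1 SE and filled points have an adjusted p under 0.05. All 12 move in the same direction in the clones, and only Bcor does not pass there, in either clone.

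Of these 40 genes 9 differed between the clones and E14Tg2a on day 8, or 22.5%, near the 19.7% of all genes. Cbx8 (-1.09 ± 0.28), Pcgf5 (-0.97 ± 0.25) and Rbbp7 (-0.74 ± 0.10) were lower, and Phc1 (0.76 ± 0.19), Pcgf6 (0.39 ± 0.09), L3mbtl2 (0.39 ± 0.10), Auts2 (0.73 ± 0.20), Asxl1 (0.33 ± 0.12) and Usp7 (0.25 ± 0.08) were higher. Pcgf5 gave 36.2 ± 10.2 TPM for ΔK9.1 and 32.0 ± 13.1 for ΔK9.2 (SD, n = 3), against 65.3 ± 7.2 in E14Tg2a. Without the second E14Tg2a library of day 8, the one rich in blood markers, 7 of the 9 lost the call, with adjusted p values of 0.0508 for Auts2 to 0.144 for Asxl1, and Rbbp7 and Phc1 kept it. Without the third, 5 lost it, Phc1 among them (adjusted p = 0.0597). In a fit of the day 8 libraries alone 8 lost it, and Rbbp7 kept it. With library weights Cbx8 (adjusted p = 0.0614), Asxl1 (adjusted p = 0.0633) and Usp7 (adjusted p = 0.0574) lost it. Asxl1 was also lost without any one ΔK9.1 library (adjusted p = 0.0567 to 0.0699) or the first of ΔK9.2 (adjusted p = 0.118), and Usp7 without the first of ΔK9.1 (adjusted p = 0.0697) or ΔK9.2 (adjusted p = 0.079). The share of all genes called fell to 7.48% without the second library. The change from day 0 to day 8 itself differed for Phc1 (0.99 ± 0.27, adjusted p = 0.0284) and Rbbp7 (-0.66 ± 0.15, adjusted p = 0.0114), as it did for 6.3% of all genes. The call of Phc1 was lost in 8 of the 18 fits that left out 1 library (adjusted p of up to 0.0843) and that of Rbbp7 in 1, without the second E14Tg2a library of day 8 (adjusted p = 0.0576).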

How the data were processed

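Poly-A RNA of 33 libraries was sequenced paired-end from stranded libraries. The authors aligned the reads to mm10 with STAR and estimated TPM with RSEM under a strand-specific setting, and the deposited table holds those TPM for 16336 genes. The versions and the gene annotation are not given in the sources used here. By the methods, libraries far out in a principal component analysis were omitted, and whether this accounts for the absence of replicate 1 on day 6 is not stated. The same table carries the authors' DESeq2 fold changes and FDR values, which were not used, and 0 other per-sample columns were left out.

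TPM keep no read depth, so no counting interval is given. log2(TPM + 1) was fitted with limma 3.58.1 (R 4.3.3, empirical Bayes with intensity trend) with 12 group means, contrasts were tested two-sided, and p was adjusted by Benjamini-Hochberg over all genes with a threshold of 0.05. The fit was tested on simulated data with known changes. Ratios and shares were computed per library and carry no test. Figures were drawn with Python 3.11.15 and matplotlib 3.10.9. Positions are those of GENCODE M21 on mm10.

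The members and gene lists were chosen with earlier results of these data known. Named were all members, up to 12 other Polycomb genes per comparison with the greatest difference among those that passed (on day 8 against day 0 also past 1 on the log2 scale), and for 4 members the 3 genes with the highest correlation among those with a mean of at least 5 TPM. Pcgf6, Phf1 and Cbx6 are given in the day 8 against day 0 comparison, outside that rule as paralogs of named genes, after their values were seen. 1 gene is not reported here and was left out of the lists and shares.

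Same-numbered libraries of different lines deviated together from their group means on days 0, 4 and 8 (9 of 9 pairs on each day with a correlation over 0.1, the lowest 0.12, 0.128 and 0.18), and the methods say that the lines were differentiated in parallel, so the numbers were taken as pairing the lines on those days. The main fit did not use this pairing, and its p values measure the spread between assays of 1 clone per line. The replicate block gives each replicate number 1 effect shared by all days, so no fit paired the lines within a day alone. The alternatives added 0.1 in place of 1 TPM, kept genes with at least 5 TPM in a group mean, used rescaling by median ratios, the replicate block, library weights or a fit of the compared groups alone, or left out each library in turn.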

Additional observations from a re-analysis of the deposited data

Results flagged for a closer look

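For 3 Polycomb genes the clones and E14Tg2a differed in how far the level had moved by day 8 from day 0, by a test of that difference itself, which 6.3% of all genes passed. Jarid2 changed by 0.61 less downward on the log2 scale in the mean of the clones (adjusted p = 0.0447, lost in 12 of 18 fits that left out 1 library and at a pseudocount of 0.1), from 129.8 to 30.7 TPM in E14Tg2a, 97.7 to 42.8 in ΔK9.1 and 132.1 to 39.6 in ΔK9.2. Phc1 changed by 0.99 less downward (adjusted p = 0.0284, lost in 8 of 18 such fits and, at 0.0757, in the fit of the compared groups), from 158 to 31.0 TPM in E14Tg2a, 124 to 54.6 in ΔK9.1 and 149 to 54.3 in ΔK9.2. Rbbp7 rose less, with a difference of -0.66 (adjusted p = 0.0114, lost in 1 of 18, without the second E14Tg2a library of day 8), from 260 to 706 TPM in E14Tg2a, 244 to 432 in ΔK9.1 and 248 to 410 in ΔK9.2. Marker lists moved between the lines on the same day, and their part in these 3 differences was not tested.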

How the results depend on the processing

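Over 163 comparisons of single genes, 83 passed, and of 2187 values under alternatives 2056 kept their side of the threshold, with another sign in 62 that passed in neither fit, 98 no longer passed, 33 newly passed and 0 that passed turned direction. The cause of the changes below was not tested. Of 10 members, 4 passed in E14Tg2a on day 4 and 7 with library weights (26.2% and 36.2% of all genes). In ΔK9.1 on day 4, 4 passed and 1 after rescaling (29.2% and 19.7%). In ΔK9.2 on day 4, 5 passed and 3 in a fit of the compared groups (32.3% and 27.5%). Between the clones and E14Tg2a, day 0 had 0 and 1 with weights (Ezh2) or in the fit of its groups (Mtf2), day 6 had 0 and 1 with a minimum of 5 TPM, after rescaling or with the replicate block (Jarid2, adjusted p = 0.0173) and 2 with weights, day 8 had 2 and 0 in the fit of its groups, and the test of the change over time had 1, with 0 at a pseudocount of 0.1 and 2 with weights. Leaving out 1 library gave 3 to 5, 6 to 8 and 7 to 8 members on days 4, 6 and 8 in E14Tg2a, 3 to 4, 2 to 7 and 7 to 8 for ΔK9.1, 4 to 5, 7 to 8 and 7 to 7 for ΔK9.2, 0 to 0, 0 to 0, 0 to 1 and 0 to 4 between clones and E14Tg2a on days 0, 4, 6 and 8, and 0 to 1 for the change over time. On day 8 these were 4 without the first E14Tg2a library, 0 without the second or the third and 1 without the first of ΔK9.2. The difference in the log2 ratio of Cbx2 to Cbx7 on day 8, clones minus E14Tg2a, was -0.21 and reversed to 0.0657 without the third ΔK9.1 library, with a range of -0.41 to 0.07. The ratio of Ezh1 to Ezh2 gave -0.45 (-0.60 to -0.32) there, and from day 0 to day 8 in E14Tg2a 0.36 (0.04 to 0.81), against 3.28 (3.16 to 3.39) for Cbx2 to Cbx7.

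Across days within a line 7, 2 and 7 of 15 same-numbered pairs in E14Tg2a, ΔK9.2 and ΔK9.1 correlated over 0.1, and on day 6 between lines 4 of 6, so there the numbers are not shown to pair libraries. With the block, Ezh2 passed from day 0 to day 8 in E14Tg2a (adjusted p = 0.0294) and Rnf2 on day 6 in ΔK9.2 (adjusted p = 0.0487), and member counts were 4, 7 and 8 in E14Tg2a, 4, 7 and 8 for ΔK9.1, 5, 9 and 7 for ΔK9.2, 0, 0, 1 and 2 between clones and E14Tg2a and 1 for the change over time. Over all genes the block gave 1079, 816 and 1017 calls between clones and E14Tg2a on days 0, 4 and 6 against 652, 465 and 626, and 1639 against 1029 for the change over time. Library weights gave 2664, 2293, 1998 and 1559 there, fewer on day 8 (2355 against 3217), and 7367 and 8779 on day 4 for ΔK9.1 and ΔK9.2 against 4768 and 5274. Fits of the compared groups gave 70, 5 and 415 on days 4, 6 and 8 against 465, 626 and 3217, and 381 for the change over time.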
